A study of Mus musculus with 21 samples.

Results

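The genes described here are the 7 cyclin-dependent kinase inhibitor genes of the mouse, Cdkn1a, Cdkn1b, Cdkn1c, Cdkn2a, Cdkn2b, Cdkn2c and Cdkn2d, out of 21887 protein-coding genes on the autosomes and the X and Y chromosomes. They were chosen by name. A peak was counted for a gene when it shared at least 1 bp with the gene's span in GRCm38 extended by 1 kb on each side, and the width given for a gene is the sum of the widths of those whole peaks.

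Cyclin-dependent kinases drive cells through the division cycle, and these inhibitors stop them. The Cip/Kip proteins, p21 from Cdkn1a, p27 from Cdkn1b and p57 from Cdkn1c, bind many cyclin and kinase complexes. The INK4 proteins bind Cdk4 and Cdk6 and keep cyclin D away from them, and they come from Cdkn2a, Cdkn2b, Cdkn2c and Cdkn2d. In skeletal muscle, leaving the cell cycle precedes the formation of myotubes, and p21 and p57 are known for their part in that exit. H3K4me3 is a histone mark of active promoters. PSME3 is a nuclear proteasome activator that is known to act on p21 protein.

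The cells were C2C12, a line of mouse myoblasts that form myotubes when serum is withdrawn. CUT&RUN, in which a nuclease tethered to an antibody releases the DNA around its target, was performed with antibodies against PSME3, H3K4me3 and IgG. Cycling cells were kept in medium with 20% FBS and were frozen unfixed in 10% DMSO, with 3 replicates for each antibody. Day 2 cells had spent 48 h in 2% horse serum after reaching confluency, and 4 preparations with 1 library per antibody were made of them. The cells were assayed fresh or after freezing, and in each case either native or crosslinked with 0.1% formaldehyde. Only the frozen native preparation matched that of the cycling cells. Of the 21 libraries, the 14 with PSME3 or H3K4me3 are reported, together with the authors' 2 pooled lists of cycling cells, which makes 16 lists. Libraries made with IgG were not analysed here. The study describes its cycling replicates as biological, and the labels give no more than their numbers, so tests measure the spread between these libraries.

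The lists hold peaks and no read numbers, so depth was unknown and both the number and the width of peaks can depend on it. The H3K4me3 lists held between 14372 and 40999 peaks. Cycling replicate 2 stood apart, with 40999 peaks of a median width of 662 bp against 1781 and 1784 bp in replicates 1 and 3. The PSME3 lists held 776 to 3070 peaks in cycling replicates and 5812 in the pooled list, but 18 to 186 in the day 2 libraries. The genes of the myoblast proteins Myod1, Myf5, Des, Cdh15 and Pax7 had H3K4me3 in all 7 H3K4me3 libraries. Myog, Myh3 and Tnnt3, genes of differentiating muscle, had a peak in 0 of 3 cycling and 4 of 4 day 2 libraries. Ptprc, Cdh5 and Epcam, which mark leukocytes, endothelium and epithelium, had none. Sox10, a neural crest marker, had one in 1 cycling and 1 day 2 library.

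Because the data concern the marking of promoters, the DNA upstream of the annotated starts that H3K4me3 covered is printed next. The outer start of Cdkn1a, which some lists covered and others did not, and that of Cdkn2a, which none covered, are shown beside them. Each line gives the 250 bases that precede an annotated start, read 5′ to 3′ along the strand of the gene, from the RefSeq promoter table of GRCm38.p6, which held 6 of the 7 genes and not Cdkn1c. Capitals mark matches on either strand to 4 motifs, the TATA box written as TATAAA, the CCAAT box, the GC box written as GGGCGG and the E-box written as CANNTG, and no matches overlapped in these windows.
Cdkn1a, outer start, chr17:29090729-29090978, plus strand: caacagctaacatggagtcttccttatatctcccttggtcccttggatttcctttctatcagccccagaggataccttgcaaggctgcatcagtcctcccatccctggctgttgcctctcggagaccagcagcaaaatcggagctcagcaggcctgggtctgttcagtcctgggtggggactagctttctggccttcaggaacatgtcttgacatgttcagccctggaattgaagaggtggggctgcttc
Cdkn1a, inner start, chr17:29093519-29093768, plus strand: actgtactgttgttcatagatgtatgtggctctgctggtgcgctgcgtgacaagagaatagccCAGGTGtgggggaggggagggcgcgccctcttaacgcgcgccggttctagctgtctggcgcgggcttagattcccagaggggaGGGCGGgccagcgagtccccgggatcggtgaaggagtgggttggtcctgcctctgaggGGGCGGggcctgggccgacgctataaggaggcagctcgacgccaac
Cdkn1b, chr6:134920151-134920400, plus strand: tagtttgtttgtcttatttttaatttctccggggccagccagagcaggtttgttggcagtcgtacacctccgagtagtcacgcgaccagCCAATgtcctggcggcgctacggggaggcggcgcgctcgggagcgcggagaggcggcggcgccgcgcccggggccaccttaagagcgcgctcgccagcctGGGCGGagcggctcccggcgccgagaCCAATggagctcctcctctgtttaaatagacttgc
Cdkn2c, outer start, chr4:109666757-109667006, minus strand: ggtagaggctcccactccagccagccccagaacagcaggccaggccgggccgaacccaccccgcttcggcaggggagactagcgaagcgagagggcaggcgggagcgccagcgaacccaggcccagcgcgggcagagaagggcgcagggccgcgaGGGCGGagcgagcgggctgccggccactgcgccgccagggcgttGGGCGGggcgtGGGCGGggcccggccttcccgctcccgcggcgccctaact
Cdkn2c, inner start, chr4:109665373-109665622, minus strand: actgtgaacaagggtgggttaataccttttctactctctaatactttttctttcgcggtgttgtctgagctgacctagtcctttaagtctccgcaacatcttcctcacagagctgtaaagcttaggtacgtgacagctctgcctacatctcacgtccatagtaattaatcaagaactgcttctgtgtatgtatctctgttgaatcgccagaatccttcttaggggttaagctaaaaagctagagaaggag
Cdkn2d, chr9:21291210-21291459, minus strand: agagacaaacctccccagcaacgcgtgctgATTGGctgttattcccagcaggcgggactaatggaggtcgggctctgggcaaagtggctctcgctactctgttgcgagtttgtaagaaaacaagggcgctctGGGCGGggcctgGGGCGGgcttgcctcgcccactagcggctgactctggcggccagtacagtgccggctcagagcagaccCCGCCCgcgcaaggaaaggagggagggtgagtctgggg
Cdkn2a, outer start, chr4:89294620-89294869, minus strand: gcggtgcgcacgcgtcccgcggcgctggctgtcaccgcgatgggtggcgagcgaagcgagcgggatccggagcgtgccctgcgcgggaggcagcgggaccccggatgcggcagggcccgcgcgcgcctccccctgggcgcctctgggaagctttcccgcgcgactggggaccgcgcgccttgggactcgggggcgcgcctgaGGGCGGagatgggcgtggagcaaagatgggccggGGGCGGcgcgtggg

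Among 32851 promoters of the table, 12.4% held TATAAA, 33.8% held CCAAT, 32.7% held GGGCGG and 66.2% held CANNTG in windows of the same length. The median window held 6 CpG. The Cdkn1b window held 28 CpG, 2 CCAAT and 1 GGGCGG. The Cdkn2c starts differed, with 29 CpG and 3 GGGCGG before the outer one but 6 CpG and none of the motifs before the inner one. The Cdkn2d window held 16 CpG, 1 CCAAT and 3 GGGCGG. The Cdkn1a starts differed too, with 2 CpG and none of the 4 motifs before the outer start against 19 CpG, 2 GGGCGG and 1 CANNTG before the inner one. The richest window was that of the outer Cdkn2a start, with 40 CpG and 2 GGGCGG, and 98.7% of promoters held fewer CpG. Cdkn2b had 12 CpG and 1 CANNTG. None of these windows held TATAAA. A match says only that the letters are there.

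H3K4me3 marked 5 of the 7 inhibitor genes in cycling cells, and Cdkn2a and Cdkn2b had no peak of either kind in any of the 16 lists. The 5 genes were the same in each cycling replicate and in the pooled list, against 58.8%, 63.6% and 59.1% of all protein-coding genes with a peak in replicates 1, 2 and 3 and 61% in the pooled list. At day 2 the count was again 5 of 7 in the fresh crosslinked, frozen crosslinked and frozen native libraries, beside 57.5%, 57.7% and 56.9% of all genes. It was 4 of 7 in the fresh native library, beside 54.5%, where Cdkn1c had no peak. The genes with a peak in all 7 H3K4me3 libraries were 4 of 7, Cdkn1a, Cdkn1b, Cdkn2c and Cdkn2d, against 53.2% of all genes. Having no peak in any list was found for 2 of 7, against 34% of all genes. These shares lie near the background, and what set the marked members apart from each other was width.

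**Figure D1:**
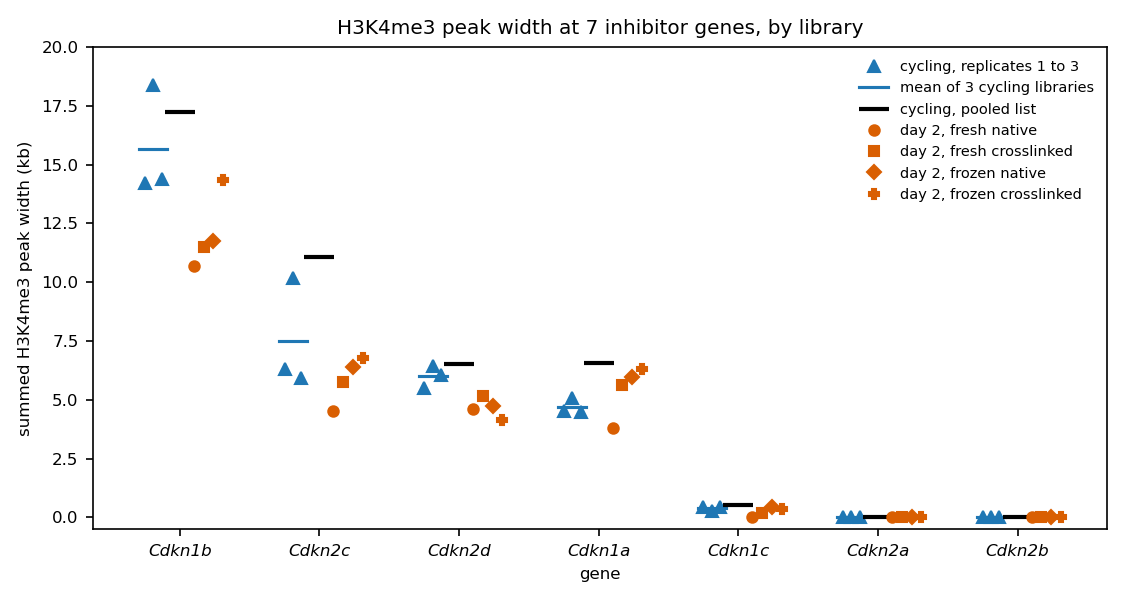
Summed width of H3K4me3 peaks at each of the 7 genes, in kb on a linear axis. Triangles are the 3 cycling replicates, with their mean as a blue line, black bars the pooled cycling list, and orange marks the 4 day 2 preparations. Cdkn1b lies above every other gene in both stages, while Cdkn2a and Cdkn2b lie at 0 throughout.

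Cdkn1b (chr6:134920401-134925525, plus strand), whose product p27 holds cells in quiescence, had the widest H3K4me3 of the 7. Its single peak measured 14204, 18370 and 14399 bp in cycling replicates 1, 2 and 3 and 17221 bp in the pooled list. The day 2 peak measured 14326 bp frozen crosslinked, 11745 bp frozen native, 11478 bp fresh crosslinked and 10668 bp fresh native. The lowest cycling value lay below the highest day 2 value, so the stages overlapped. Among all H3K4me3 peaks of a list this one ranked 15th of 18077, 13th of 40999 and 19th of 19365 by width in replicates 1, 2 and 3, and between 12th and 17th in the day 2 libraries. In the pooled list Cdkn1b came 107th among 13346 genes with a peak. The pooled peak ran from 3945 bp before the start to 13275 bp past it, well beyond the end of the gene. In all 8 H3K4me3 lists the peak reached the start of Lockd, a long noncoding RNA gene at chr6:134929092-134951718 on the same strand, so its width cannot be assigned to Cdkn1b alone.

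The edges of this domain were drawn differently from list to list. A separate peak of 1074 to 1397 bp lay 2435 to 2783 bp upstream of Cdkn1b in cycling replicates 1 and 3 and in all 4 day 2 libraries, and it was not counted in the widths. In cycling replicate 2 and the pooled list it was part of the main peak. At the far end, the main peak stopped at 9.63 kb past the start in the fresh native, 10.4 kb in the fresh crosslinked and 10.5 kb in the frozen native library, and a further peak followed up to about 13 kb. The cycling peaks and that of the frozen crosslinked day 2 library were unbroken there.

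Cdkn1a (chr17:29090979-29100722, plus strand) encodes p21, the inhibitor that p53 and MyoD are known to induce. Its H3K4me3 measured 4536, 5059 and 4489 bp in cycling replicates 1, 2 and 3 and 6545 bp in the pooled list. At day 2 the width was 6294 bp frozen crosslinked, 5946 bp frozen native, 5640 bp fresh crosslinked and 3796 bp fresh native. Of the 4 day 2 values, 3 were above every cycling value and the fresh native one was below them all. The strong peak covered the inner start, 29093769, in every list. In cycling replicate 1 it spanned chr17:29093280-29096715 with a fold enrichment over background of 14.2 as given by the authors.

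The outer start of Cdkn1a, 29090979, was marked less evenly. In cycling replicates 1, 2 and 3 a separate peak of 1100, 1172 and 462 bp began 140, 230 and 341 bp downstream of it, with a fold enrichment of 4.01, 2.90 and 2.97. The fresh crosslinked library had such a peak of 972 bp with a fold enrichment of 2.72, and this one covered the start. The fresh native library had none. In the pooled, frozen native and frozen crosslinked lists a single peak ran over the region between the starts. Of the 250 bases before the outer start printed above, 0 were under a peak in the 3 cycling replicates and in both native day 2 libraries, 62 in the fresh crosslinked and 80 in the frozen crosslinked library, while the pooled list covered all 250. The 250 bases before the inner start were covered in full in all 8 lists.

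Cdkn1c (chr7:143458339-143461059) encodes p57 and is an imprinted gene, expressed from the maternal copy. Its marking was small. The peak measured 444, 257 and 426 bp in cycling replicates 1, 2 and 3 and 530 bp in the pooled list, with fold enrichments between 2.58 and 3.43. After differentiation it measured 187 bp fresh crosslinked, 336 bp frozen crosslinked and 440 bp frozen native, and it was missing from the fresh native library. The pooled list placed Cdkn1c 12978th by width of 13346 genes with a peak. The fresh crosslinked peak, chr7:143460837-143461023, did not overlap the others, which lay between 143459499 and 143460091. At a q-value limit of 0.01 the peak was lost from cycling replicates 1 and 2 and from the frozen crosslinked library. The annotation used gave neither a strand nor a start for this gene.

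**Figure D2:**
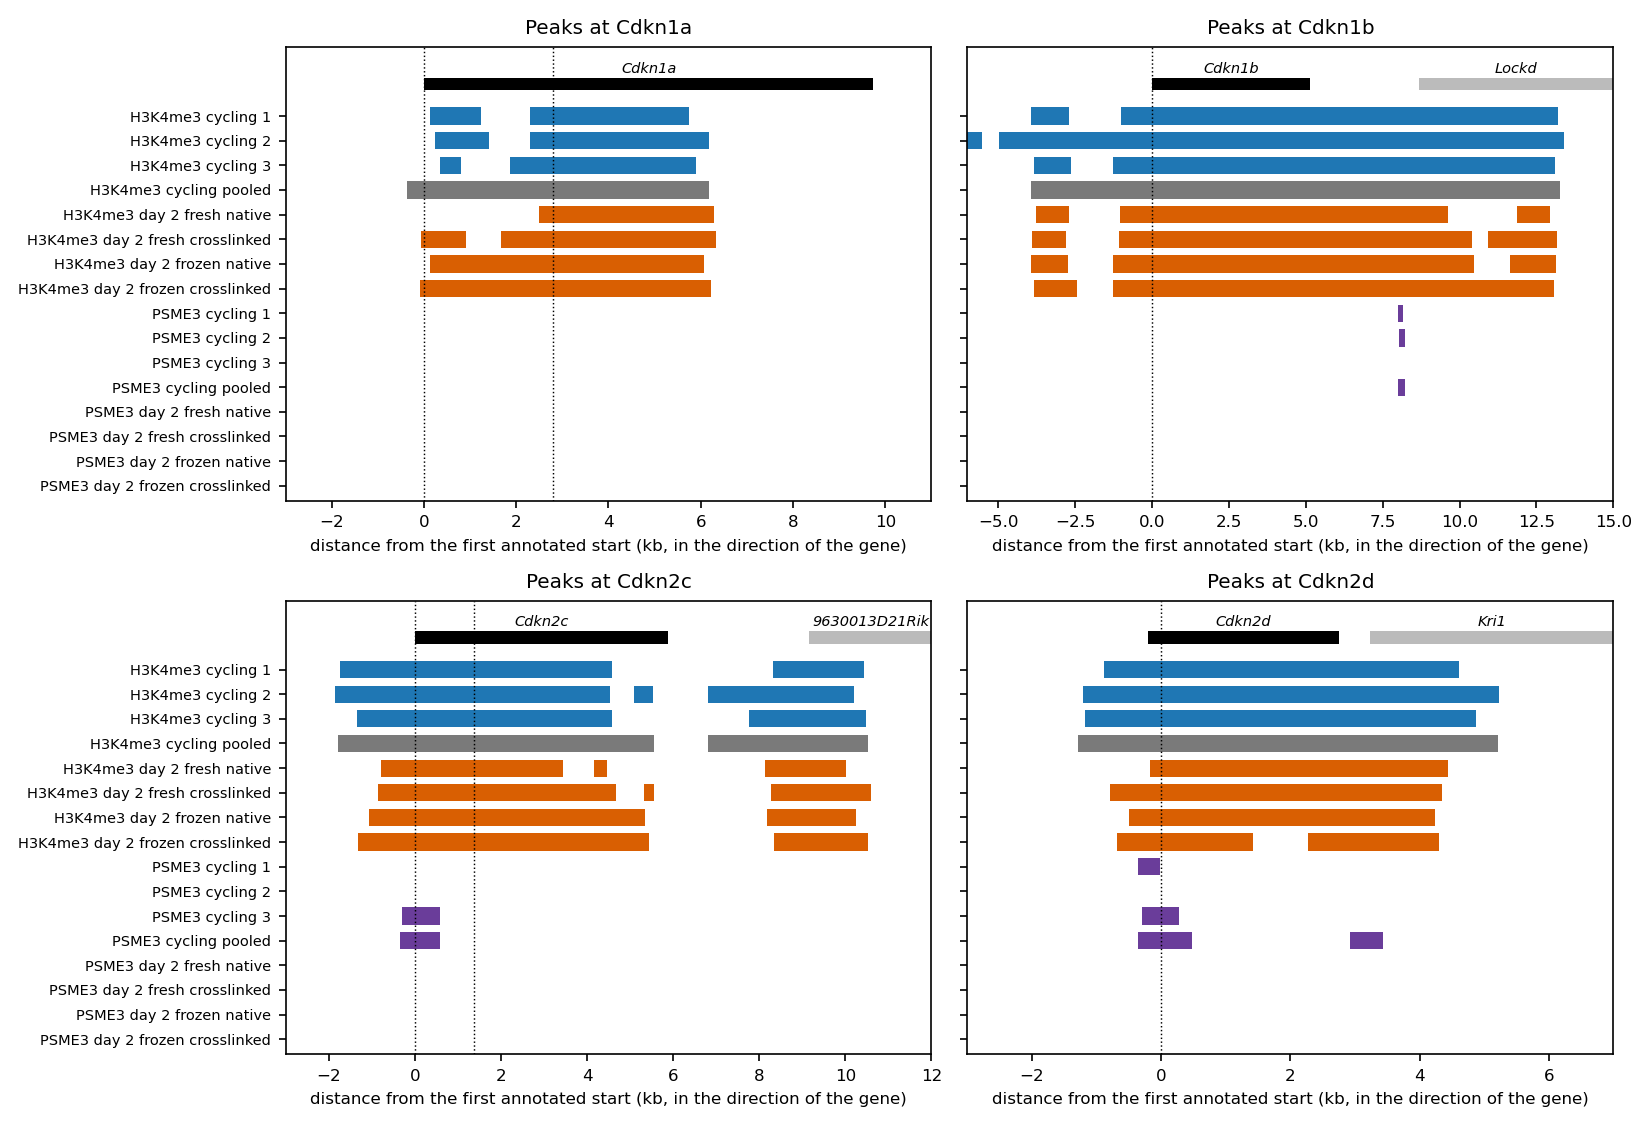
Peaks of all 16 lists at Cdkn1a, Cdkn1b, Cdkn2c and Cdkn2d, by distance in kb from the outer annotated start along the gene. Dotted lines are annotated starts, black bars the genes, light grey bars neighbouring genes, blue the cycling and orange the day 2 H3K4me3 libraries, dark grey the pooled H3K4me3 list, and purple the PSME3 lists. PSME3 peaks lie at the starts of Cdkn2c and Cdkn2d and about 8 kb past the start of Cdkn1b, and no day 2 row holds one.

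The first of the marked INK4 genes, Cdkn2c (chr4:109660876-109666756, minus strand), encodes p18. Its H3K4me3 measured 6314, 10198 and 5923 bp in cycling replicates 1, 2 and 3 and 11055 bp in the pooled list. The day 2 widths were 6767 bp frozen crosslinked, 6409 bp frozen native, 5747 bp fresh crosslinked and 4535 bp fresh native, so the stages overlapped. The main peak covered both annotated starts in every list, and all of the 250 bases printed above lay inside it. The larger values of replicate 2 and of the pooled list came with a further peak, of 3372 and 3703 bp, that fell just within 1 kb of the far end of the gene. In the pooled list this peak lay 936 bp from the gene. It covered the start of 9630013D21Rik, a long noncoding RNA gene at chr4:109652427-109657588, and in the other lists it lay 1883 to 2459 bp away and was not counted.

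Cdkn2d (chr9:21288459-21291421, minus strand), which encodes the INK4 protein p19, had an H3K4me3 width of 5506, 6444 and 6055 bp in cycling replicates 1, 2 and 3 and 6512 bp in the pooled list. At day 2 its width was 4151 bp frozen crosslinked, 4606 bp fresh native, 4750 bp frozen native and 5142 bp fresh crosslinked. All 4 day 2 values were below the lowest cycling value. Cdkn2d was wider than Cdkn2c in cycling replicate 3 and in the fresh native library, and narrower in the other libraries. The mark was shared with Kri1, the next gene (chr9:21273457-21287969), whose start lay under a counted peak in all 8 lists. In the frozen crosslinked library the domain was drawn as peaks of 2036 and 2115 bp, the first at Kri1 and the second at the start of Cdkn2d.

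By width in cycling cells, Cdkn1b came first, followed by Cdkn2c and Cdkn2d, whose replicates overlapped, then Cdkn1a and then Cdkn1c. No other neighbours in this order overlapped over the 3 replicates. In the pooled list Cdkn1a, at 6545 bp, was wider than Cdkn2d, at 6512 bp. Counting only bases inside the 1 kb window, Cdkn2d measured 4641, 4963 and 4937 bp and overlapped with Cdkn1a. At day 2 Cdkn1b was again above all others. Cdkn2c, Cdkn1a and Cdkn2d followed with overlapping libraries, and Cdkn1c came after them with no overlap.

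PSME3 was found at 2 inhibitor genes, Cdkn2c and Cdkn2d, both in cycling cells and both of the INK4 family. The count of members with a PSME3 peak was 1 of 7 in cycling replicate 1, 0 of 7 in replicate 2, 2 of 7 in replicate 3 and 2 of 7 in the pooled list, where 4.56%, 3.6%, 13.4% and 21.9% of all protein-coding genes had one. Among genes with an H3K4me3 peak in the same list, those shares were 7.56%, 5.66%, 22.5% and 35.6%, to be read against 1, 0, 2 and 2 of the 5 marked members. At these sizes the counts of members are near the background. Over the cycling replicates 5 ± 0 members had H3K4me3 and 1 ± 1 had PSME3 (mean ± SD, n = 3 each). The H3K4me3 lists are far longer and the background shares differ in the same way, so this difference of 4 says nothing particular about the members. A two-sided exact permutation test gave p = 0.1, the smallest that 3 against 3 libraries allow. With the replicate block, an exact sign-flip test gave p = 0.25, again the smallest possible.

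At Cdkn2d the PSME3 peak sat on the start. It measured 331 bp in replicate 1 with a fold enrichment of 5.27, 574 bp in replicate 3 with 3.63, and 826 bp in the pooled list with 3.29. Replicate 2 had none. The replicate 1 peak ran from 354 to 24 bp before the start and covered 227 of the 250 bases printed above, and those of replicate 3 and the pooled list covered the start itself. A second pooled peak of 518 bp, with a fold enrichment of 2.92, covered the start of Kri1 170 bp beyond the end of Cdkn2d. Every PSME3 peak at Cdkn2d lay inside an H3K4me3 peak of the matching list.

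At Cdkn2c a PSME3 peak of 887 bp with a fold enrichment of 3.22 was found in replicate 3, and one of 930 bp with 3.18 in the pooled list, chr4:109666172-109667101. The pooled peak ran from 345 bp before the outer start to 584 bp past it, inside the H3K4me3 peak, and did not reach the inner start. Replicates 1 and 2 had no peak there. Of the PSME3 peaks of replicate 3, the largest list of the 3 replicates with 3070 peaks, this one ranked 304th by width but was among the weaker by fold enrichment, with 9.58% of the peaks below it. In the pooled list 74.7% of the peaks had a lower fold enrichment than the one at Cdkn2c. At a q-value limit of 0.01 it was lost from replicate 3 and stayed in the pooled list.

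No Cip/Kip gene had a PSME3 peak within 1 kb in any list. At Cdkn1a and Cdkn1c this held out to 3 kb as well. Near Cdkn1b a PSME3 peak lay 2863 bp past the end of the gene, at chr6:134928388-134928620 in the pooled list with a width of 233 bp and a fold enrichment of 3.30. It was present in replicate 1 (169 bp, fold enrichment 5.10) and in replicate 2 (198 bp, fold enrichment 4.03), and absent from replicate 3. The pooled peak ended 472 bp before the start of Lockd and lay inside the wide H3K4me3 peak. For comparison, 74 of the 107 genes whose pooled H3K4me3 was at least as wide as that of Cdkn1b had a PSME3 peak within 1 kb, or 69.2%. This comparison is a loose one, since width sums whole peaks while PSME3 was sought only within 1 kb of the gene. Of the 17221 bp of pooled H3K4me3 at Cdkn1b, 7125 bp lay within that distance.

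In day 2 cells no member had a PSME3 peak in any of the 4 libraries. The share of all genes with one was 0.909% in the frozen native and 0.361% in the frozen crosslinked library, with 0.0457% and 0.0366% in the fresh native and fresh crosslinked ones, so 0 of 7 is also what the size of these lists gives. Over the 4 libraries 1% of genes had a PSME3 peak in at least 1. The H3K4me3 peaks at the starts of Cdkn2c and Cdkn2d were still listed in all 4 preparations.

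Widths in bp cannot be compared directly between lists of unknown depth. Each gene was therefore ranked by width among the 21887 protein-coding genes of its own list, a gene without a peak counting as 0, and the percentile was compared between 3 cycling and 4 day 2 libraries. The smallest p that a two-sided exact permutation test can give here is 0.0571, so no difference could pass 0.05. Cdkn1a was the member whose stages did not overlap. Its percentile was 90.1, 84.3 and 87.8 in cycling replicates 1, 2 and 3. In day 2 cells it was 93.7 fresh native, 95.6 fresh crosslinked, 96.1 frozen crosslinked and 96.6 frozen native. The mean moved from 87.4 ± 2.95 (SD, n = 3) to 95.5 ± 1.25 (SD, n = 4), a difference of 8.09 points (exact permutation p = 0.0571). The size depended on the measure. It was 3.70 points within 1 kb of a gene start and 4.45 points with all genes ranked (exact permutation p = 0.0571 for both), and 0.292 points when genes were ranked by fold enrichment in place of width (exact permutation p = 1). One member of 7 thus had all day 2 values above all cycling values, and 8.59% of all genes did. None had all of them below, as 5.8% of genes did. In bp the Cdkn1a libraries overlapped, with 4695 ± 316 in cycling and 5419 ± 1115 in day 2 cells (exact permutation p = 0.343).

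**Figure D3:**
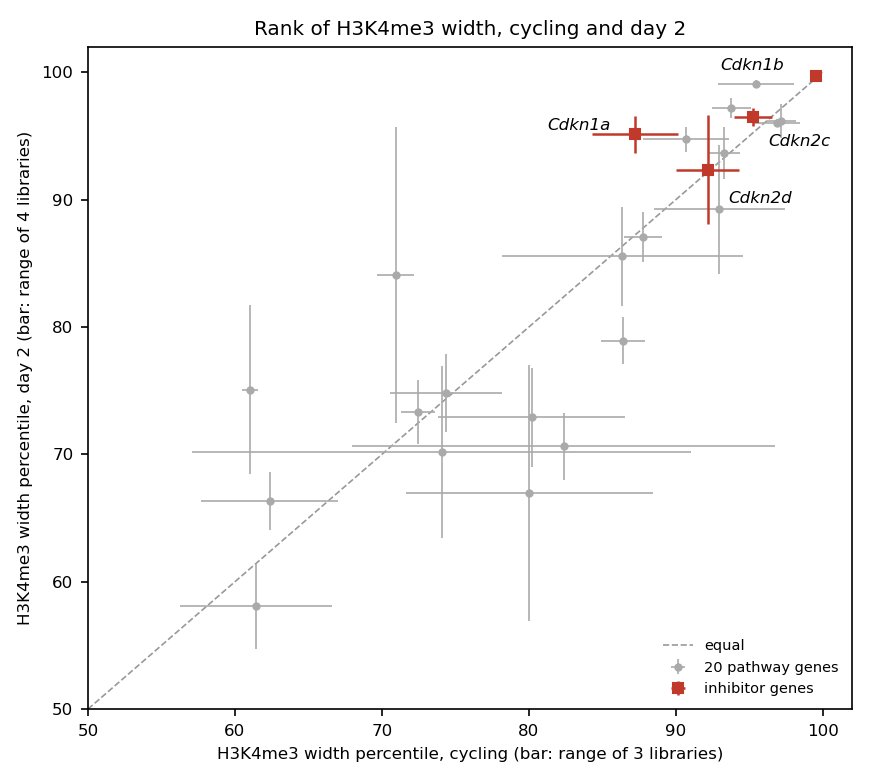
Percentile of H3K4me3 width among protein-coding genes in cycling (x axis) and day 2 cells (y axis), with bars for the range over 3 and 4 libraries and the mark at the middle of each range. Red squares are inhibitor genes, grey points the 20 pathway genes, and the dashed line marks equal ranks. Cdkn1a lies above the line with day 2 values of 93.7 to 96.6 against 84.3 to 90.1, while Cdkn1c, Cdkn2a and Cdkn2b fall outside the axes.

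The other members kept overlapping ranks. Cdkn1b stood at 99.6 ± 0.184 in cycling and 99.7 ± 0.116 in day 2 cells (exact permutation p = 0.343). Cdkn2c stood at 95.5 ± 1.34 and 96.5 ± 0.582 (exact permutation p = 0.286). Cdkn2d stood at 92.8 ± 2.41 and 93.1 ± 3.60 (exact permutation p = 0.971). Its lower widths in bp, 6002 ± 471 in cycling and 4662 ± 409 in day 2 cells (exact permutation p = 0.0571), were therefore not seen in rank. Of the 11642 genes with H3K4me3 in all 7 libraries, 41.6% had every day 2 width in bp below every cycling width, and 0.739% had every one above. Cdkn1c stood at 40.9 ± 2.53 in cycling and 32.9 ± 22.0 in day 2 cells (exact permutation p = 0.914), the latter with the fresh native library at 0. Without that library Cdkn1c was 2.98 points higher in day 2 than in cycling cells, and the stages did not overlap (exact permutation p = 0.1, the smallest that 3 against 3 libraries allow). A gene with so small a peak ranks just above the genes without one. The share of genes with a peak was 58.8%, 63.6% and 59.1% in the cycling replicates. It was 57.5%, 57.7% and 56.9% in those 3 day 2 libraries, so this shift in rank cannot be read as a gain. The widths of Cdkn1c in bp overlapped. In all these values n = 3 cycling and n = 4 day 2 libraries, and each day 2 preparation had 1 library, so preparation and replicate cannot be told apart.

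Cdkn2a (chr4:89274473-89294619, minus strand), which encodes p16 and the p53 regulator p19Arf from separate starts, and Cdkn2b (chr4:89306289-89311032, minus strand), which encodes p15, lie next to each other. Neither had a peak in any list, at 1 kb or at 3 kb. The CpG-rich window before the outer Cdkn2a start, printed above, had 0 of 250 bases covered in every list. In cycling cells the nearest H3K4me3 peak on the lower side ended 16.6, 16.4 and 16.7 kb from Cdkn2a in replicates 1, 2 and 3. In the pooled list it measured 973 bp, at chr4:89257010-89257982, with a fold enrichment of 3.09. This small peak was in all 3 cycling replicates and in none of the 4 day 2 libraries, where the nearest one lay 134 to 136 kb away at Mtap, a gene of methionine salvage.

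On the upper side the nearest H3K4me3 peak lay 204, 194 and 205 kb from Cdkn2b in cycling replicates 1, 2 and 3, and 213 kb away in each of the day 2 libraries. The stretch without H3K4me3 around the pair thus spanned 247 kb in the pooled list and 383 to 386 kb in day 2 cells. Such a stretch is not unusual for an unmarked gene. Over the 8075 coding genes with no pooled peak within 1 kb and at least 1 on each side of them, the median was 451 kb, and 62.6% of them had a longer one than Cdkn2a and Cdkn2b. The nearest pooled PSME3 peak was 217 kb below Cdkn2a and 5292 kb above Cdkn2b. A list of peaks has no value where there is no peak, so DNA without the mark cannot be told apart here from DNA that gave no reads.

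**Figure D4:**
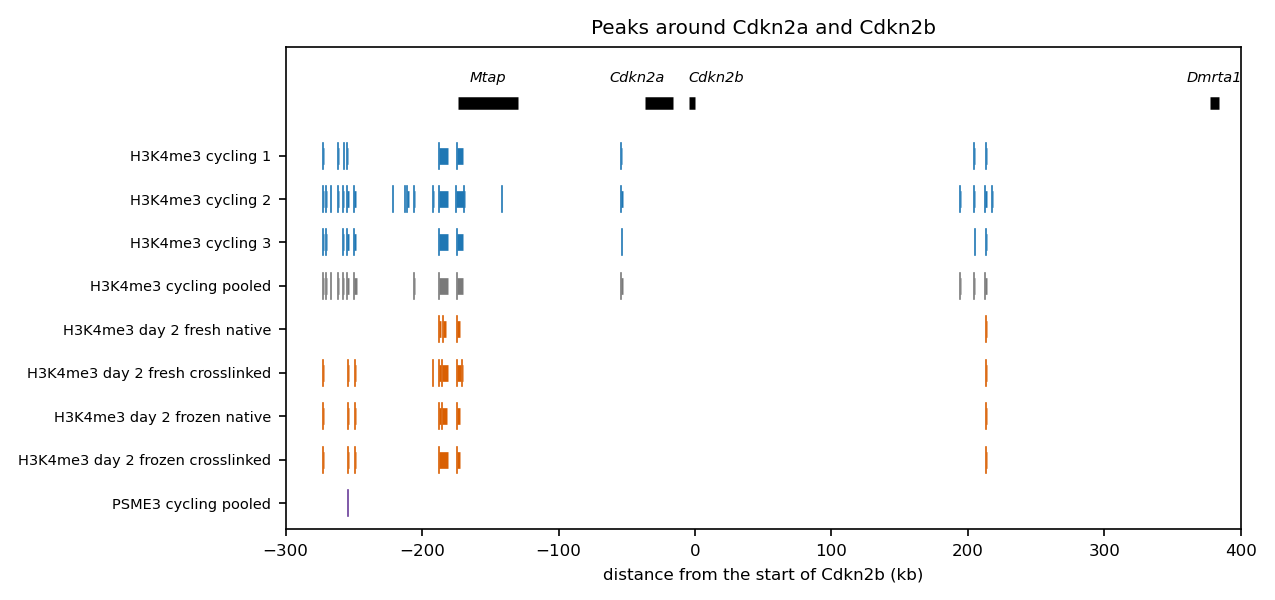
Peaks around Cdkn2a and Cdkn2b in the 8 H3K4me3 lists and the pooled PSME3 list, by distance in kb from the start of Cdkn2b in the direction of rising coordinates. Black bars are protein-coding genes, and a thin line marks the lower edge of each peak. No peak falls on either gene, and the small peak about 50 kb below Cdkn2b is in the cycling rows alone.

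The other genes of the pathway were all marked. The 20 genes were cyclins (Ccnd1, Ccnd2, Ccnd3, Ccne1, Ccne2, Ccna2), their kinases (Cdk2, Cdk4, Cdk6), the pocket proteins that the kinases phosphorylate (Rb1, Rbl1, Rbl2), E2F factors that the pocket proteins hold (E2f1, E2f2, E2f3, E2f4, E2f5), and Trp53, Mdm2 and Skp2. H3K4me3 was present at 20 of 20 in all 7 libraries, where 53.2% of all genes had it. Cdk4 and Cdk6, the kinases that INK4 proteins bind, were thus marked throughout. The median width percentile of the 20 was between 86.4 and 88.2 in cycling replicates, where that of the 7 inhibitors was between 84.3 and 90.1. In day 2 cells the medians were 78.0 to 80.9 and 88.1 to 94.1. Because Cdkn2a and Cdkn2b had no peak and Cdkn1c ranked low, the inhibitor median was the lowest of the remaining members. It was Cdkn1a in the cycling replicates and the fresh native library, and Cdkn2d in the other day 2 libraries. It therefore describes no shift of the inhibitors as a class. For all genes the median rank was close to 50 in every H3K4me3 library, which follows from its definition.

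PSME3 lay within 1 kb of 6 of the 20 pathway genes in the pooled list, beside 21.9% of all genes and 35.6% of those with H3K4me3. In replicates 1, 2 and 3 it lay near 2, 1 and 4 of the 20, beside 4.56%, 3.6% and 13.4% of all genes. No pathway gene had it in more than 1 replicate, nor in any day 2 library. The 6 genes, named after their values were seen, were Ccne1, Cdk4, E2f1, E2f2, E2f3 and Trp53, with pooled widths from 234 bp at E2f1 to 1103 bp at E2f3. Cdkn2d, with a PSME3 peak in 2 of 3 cycling replicates, had more than any of them, and 4.27% of all genes had one in at least 2. That share includes genes without H3K4me3. Of the 1750 genes at least as wide in pooled H3K4me3 as Cdkn2d, 1082, or 61.8%, had a PSME3 peak in the pooled list. Width percentiles were higher in every day 2 than in every cycling library for 5 of the 20 (Ccnd3, Rb1, Rbl2, E2f3 and E2f4) and lower for Ccne2, read beside the 8.59% and 5.8% of all genes given above. Those shares include the 34% of genes with no peak in any list, which cannot separate. The 20 were all marked, and the share over marked genes alone was not computed, so no excess can be read from these counts.

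The protein-coding gene most like each member was found from width percentiles over the 14 libraries, leaving out genes that shared a peak with it. For Cdkn1a it was Zfand5, with a mean absolute difference of 0.528 points. Zfand5 stood at 84.3 to 90.5 in cycling and 94.4 to 96.1 in day 2 libraries, and had no PSME3 peak. For Cdkn1b it was Rnf167 at 0.0276 points, for Cdkn1c Aadat at 0.315, for Cdkn2c Spred2 at 0.384 and for Cdkn2d Mtmr4 at 0.742. Spred2 had PSME3 in replicate 3 alone, as Cdkn2c did, and Mtmr4 in replicates 1 and 3, as Cdkn2d did. The PSME3 libraries were among the 14 used for the choice, so this agreement, and that of Zfand5, was built into it. Likeness of this kind is a description, with libraries that share their depth.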

How the data were processed

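CUT&RUN peak lists of C2C12 cells were used for 3 cycling replicates and 4 day 2 preparations with each of the PSME3 and H3K4me3 antibodies, with the 2 pooled cycling lists. Groups were taken from the sample labels. The authors cleaned the reads with Trim Galore, used Bowtie2 for the alignment and MACS2 for the peaks, and the submitters' processing notes name mm10. Versions, options and the control used are not given in the sources used here. The deposited lists have no header and the layout of MACS2 broad peaks, with a fold enrichment (a ratio over background) and the −log10 of the p-value and of the q-value for each peak, all with q under 0.1. They hold no reads, so no interval for counting error could be given, and both the number and the width of peaks can change with depth.

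Gene spans came from the RefSeq table of GRCm38.p6, which has no strand or exons, and starts, strands and sequences from the RefSeq promoter table. Peaks were assigned, summed and ranked in Python 3.11.15 with numpy 2.4.6 and pandas 2.3.3, and figures drawn with matplotlib 3.10.9. The assignment and the permutation test were tested on simulated data. Only values per library were tested, by two-sided exact permutation tests over libraries. The 7 genes, the 20 pathway genes, the markers and the motifs were chosen with earlier results of these data known. Genes named beside them share a counted peak, or are the 1 gene with the smallest mean absolute difference in width percentile. Of the pathway list, genes with PSME3 in at least 2 cycling replicates or without pooled H3K4me3 were to be named, and there were none.

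PSME3 and H3K4me3 libraries share replicate numbers. The deviations of their log2 share of peaks per autosome had a Pearson r of 0.538, 0.552 and 0.264 over 19 autosomes for replicates 1, 2 and 3, so the numbers were taken to pair them, although crossing replicates 1 and 3 gave nearly the same values, 0.521 for PSME3 replicate 1 and 0.254 for PSME3 replicate 3. Alternatives were a distance of 0 or 3 kb, q-value limits of 0.01 or 0.05, peaks lying to 50% or more in the window, 1 kb around gene starts, fold enrichment or log2 width in place of rank, width inside the window, all genes ranked, frozen native alone for day 2, and each library left out.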

Additional observations from a re-analysis of the deposited data

How the results depend on the processing

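Under other settings, 93 counts of members with a peak stayed within 1.5 times their value and 3 did not. With a distance of 3 kb, PSME3 replicate 1 counted 2 members and replicate 2 counted 1, both through the peak past Cdkn1b. The pooled PSME3 list went from 2 to 3 members through the same peak, which is just 1.5 times and so is among the 93. The 93 also include the day 2 PSME3 counts, which were 0 at every setting. With a q-value of at most 0.01, PSME3 replicate 3 counted 1. The replicate block left the difference of 4 between H3K4me3 and PSME3 as it was (exact sign-flip permutation p = 0.25) and changed no call. The background shares of genes with a peak differed in the same direction, and the cause was not tested. For day 2 against cycling cells, no paired analysis was possible because the day 2 libraries carry no replicate numbers.

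The day 2 rank of Cdkn1a was higher by 3.70 to 9.54 points under the alternatives based on width percentiles, but by 0.292 points by fold enrichment (exact permutation p = 1), where the difference was all but lost. For Cdkn1b, Cdkn1c, Cdkn2c and Cdkn2d, 12 alternatives with a test turned the sign, as did 1 without a test, Cdkn1c in the frozen native library alone (3.52 points). The libraries of Cdkn2c, which overlapped in the reported rank, separated with bases inside the window (2.63 points) and with a distance of 3 kb (1.43 points), both at an exact permutation p of 0.0571. By fold enrichment, Cdkn1b was at -1.06 and Cdkn2d at -5.30 points. On the log2 scale of width, Cdkn1b was at -0.38, Cdkn2c at -0.32 and Cdkn2d at -0.37. With a q-value of at most 0.01, Cdkn1c was at 8.22 and Cdkn2d at -0.10 points, and around gene starts Cdkn2d was at -5.98. With 1 library left out, Cdkn1c ranged from -11.8 to 2.98 and was above 0 only without fresh native. Cdkn2d ranged from -1.16 to 1.89 and was below 0 without cycling replicate 2, fresh crosslinked (-0.12) or fresh native (-0.97). The causes were not tested. The lists give no depth, so a gene without a peak may hold signal under the threshold.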
